A study of Mus musculus with 6 samples.

Results

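The 40 genes described here encode the machinery of G2 phase and mitosis, and were chosen by symbol from the deposited expression table. All 40 were found among its 35275 genes. They were measured by bulk RNA sequencing of whole tongues in 3 libraries of Aim2-/- mice (Aim2 KO) and 3 libraries of wild type mice. All 6 had received 4NQO (4-nitroquinoline 1-oxide), a DNA-damaging carcinogen that produces squamous lesions of the oral epithelium, at 100 µg/ml in the drinking water for 20 weeks, so no group was free of the carcinogen. Aim2 codes for a cytosolic protein that senses double-stranded DNA, and the study asked how its loss bears on squamous carcinoma of the head and neck. The labels give the genotype but not the strain, age or sex of the mice, the exons that the knockout removes, or how many mice the 3 libraries of a group stand for. A p-value therefore reflects the spread among these libraries alone. The library names carry a code that all 3 libraries of a genotype share and that differs between genotypes. What the code stands for was not given, and it cannot be told apart from genotype.

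Cells entering mitosis activate the kinase Cdk1 through B-type cyclins. They then condense chromosomes, build a spindle, check that every kinetochore is attached, and destroy cyclin and securin through a ubiquitin ligase, the anaphase-promoting complex, before dividing. Transcripts of most of these proteins are low in resting cells and accumulate in S and G2 phase, so their level in a tissue depends in part on the share of cycling cells. In the tongue epithelium most dividing cells lie in the basal layers, and skeletal muscle fibres, which make up much of the organ, do not divide. In a bulk sample, fewer cells of a type and less RNA per cell cannot be told apart.

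None of the 40 genes passed the test between genotypes, but 39 of them had a higher mean log2 level in the Aim2 KO tongues. The test was limma on log2(FPKM + 1), where FPKM is a fragment count scaled by gene length and by library size, over 12144 genes whose mean reached 1 FPKM. Differences on this scale understate the change of low genes. All 40 members were among these, with an adjusted p of 0.9998 each. With 0 of 40 members called, the share called among all genes tested was 0.00823%, a single gene, Wdfy1. At an unadjusted p under 0.05, 11 members were higher and 0 lower, which is 27.5% of the members against 1.93% of all genes tested for the higher side and 0.576% for the lower. The median log2 difference, Aim2 KO minus wild type, was 0.27 for the members and 0.02 for all genes tested, and 57.2% of all genes tested had a difference above 0. The groups did not overlap for 10 members, all higher in Aim2 KO, which is 25% of the members against 4.98% of all genes tested, and 1.48% of all genes tested were lower without overlap. Under median-of-ratios scaling of the libraries 2 members, Cdca3 and Nusap1, were higher without overlap, against 3.12% of all genes tested, and 0 were lower, against 2.5%. The share of members was then 5%, near that of all genes. The members vary together across libraries, so these shares are not counts of independent genes.

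The libraries held between 21959204 and 25369400 reads, recovered from the FPKM values. Each member rested on 44 to 2397 reads in a library, with a median of 386. Aim2 itself had 0.0469, 0.0564 and 0.160 FPKM in Aim2 KO, against 0.201, 0.363 and 0.417 FPKM in wild type (p = 0.1 in a two-sided exact permutation test, and 3 against 3 allow none smaller), on 3 to 30 reads. Aim2 KO replicate 1 stood apart from the other libraries in tissue makeup. Its 12 skeletal muscle markers summed to 8195 FPKM, against 13937 to 16491 FPKM in the other 5 libraries. Its fibroblast markers had a mean log2 level of 2.19, against 2.74 to 3.84 elsewhere, and its endothelial markers 1.81, against 2.19 to 2.96. Results are therefore also given without it.

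Many promoters of mitotic genes carry a cell cycle genes homology region (CHR), bound by the LIN54 subunit of the MuvB complex, together with CCAAT boxes bound by NF-Y. MuvB represses these genes in resting cells and, with MYB proteins and FOXM1, activates them in G2 phase. Promoters were taken from RefSeq on GRCm38.p6, from 250 bases before to 50 bases after each start site, and 33 of the 40 members matched by symbol, with 36 promoters. The CHR was searched as TTTGAA and the CCAAT box as CCAAT, each on both strands, and the 2 kinds of match overlapped once. Of the 36 promoters 28 (77.8%) held a CHR match, against 17.9% of all 32851 promoters and 12% of those of genes tested. A CCAAT match also occurred in 28, against 37.4% of all promoters, and both occurred in 69.4%, against 6.95%. The layout was not particular to the members. In a list of other mitosis genes 56.2% of promoters held a CHR match, 71.9% a CCAAT match and 43.8% both. CCAAT matches occurred in 54.3% of promoters of S phase genes and 63.2% of those of CDK inhibitors and G2 checkpoint genes, where CHR matches occurred in 11.4% and 5.26%. A match describes letters and not a bound site. The promoters below show the layout, with CHR and CCAAT matches in capitals. Ccnb2, Plk1 and Cenpf hold both motifs, and Nusap1, whose genotype difference was among the largest, holds neither within this window.
Ccnb2 (chr9:70421505-70421804, minus strand): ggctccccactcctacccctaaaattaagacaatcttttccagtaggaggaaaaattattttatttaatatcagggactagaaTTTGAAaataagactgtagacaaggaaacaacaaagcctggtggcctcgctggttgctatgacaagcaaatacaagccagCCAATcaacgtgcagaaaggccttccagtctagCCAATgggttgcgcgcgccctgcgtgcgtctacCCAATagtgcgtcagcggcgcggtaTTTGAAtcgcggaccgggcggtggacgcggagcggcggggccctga
Plk1 (chr7:122159185-122159484, plus strand): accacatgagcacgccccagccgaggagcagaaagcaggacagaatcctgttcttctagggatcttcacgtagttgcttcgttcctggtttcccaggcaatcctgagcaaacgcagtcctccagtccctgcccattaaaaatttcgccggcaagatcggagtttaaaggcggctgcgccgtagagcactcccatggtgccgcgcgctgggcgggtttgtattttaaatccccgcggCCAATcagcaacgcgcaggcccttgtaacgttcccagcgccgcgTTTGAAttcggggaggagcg
Cenpf (chr1:189688037-189688336, minus strand): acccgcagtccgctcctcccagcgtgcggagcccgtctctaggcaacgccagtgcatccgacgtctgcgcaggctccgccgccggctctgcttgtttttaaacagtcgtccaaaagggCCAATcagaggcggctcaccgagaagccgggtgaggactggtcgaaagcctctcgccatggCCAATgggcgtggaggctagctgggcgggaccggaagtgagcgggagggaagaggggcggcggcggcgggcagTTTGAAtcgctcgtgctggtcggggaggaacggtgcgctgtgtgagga
Nusap1 (chr2:119618048-119618347, plus strand): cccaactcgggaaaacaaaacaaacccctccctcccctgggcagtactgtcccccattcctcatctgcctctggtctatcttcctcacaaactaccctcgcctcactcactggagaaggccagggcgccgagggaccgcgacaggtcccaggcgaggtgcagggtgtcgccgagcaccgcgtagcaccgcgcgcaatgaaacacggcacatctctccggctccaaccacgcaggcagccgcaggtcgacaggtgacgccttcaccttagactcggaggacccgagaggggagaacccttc

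The CHR matches lay close to the start of transcription. Of 35 matches in member promoters, 26 began between 50 bases before and 50 bases after the RefSeq start, in 23 genes. Bub3, Ect2 and Prc1 had overlapping promoters, and a site shared by them was counted in each, so distinct sites are fewer. The match of Plk1 began at base 30 after the start, that of Cenpf at base 2, and those of Ccnb2 at base 4 and at base -167. Over all promoters of the table the CHR matches were spread along the window, at 0.986 to 2.14 per 100 promoters in each bin of 25 bases. Members with a CHR match had a median log2 difference of 0.29 (25 genes, 0.02 to 0.47), and those without had 0.18 (8 genes, -0.02 to 0.47), so the ranges overlapped almost completely. The start used by RefSeq lay within 50 bases of the gene start in the deposited table for 25 of the 33 members, so for the others the window may not be the promoter that is read in these tissues.

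**Figure D1:**
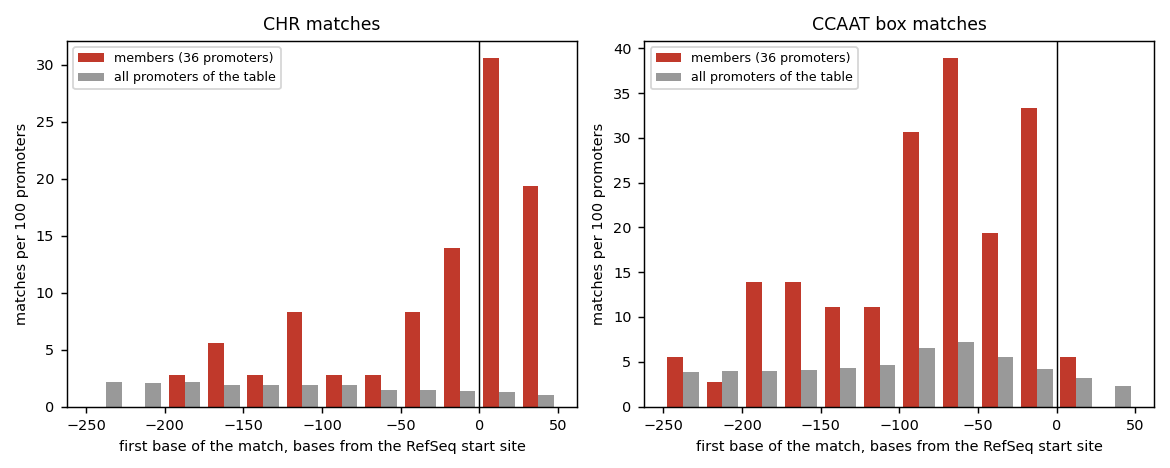
Position of CHR (left) and CCAAT box (right) matches relative to the RefSeq start site, as matches per 100 promoters in bins of 25 bases, for the 36 promoters of members and all 32851 promoters of the table. In the bin that begins at the start site, CHR matches reach 30.6 per 100 member promoters against 1.31 per 100 of all promoters.

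Library values below are given in the order of replicates 1 to 3. The cyclins and their kinase drive entry into mitosis. Cdk1, the kinase itself, had 8.44, 5.55 and 6.30 FPKM in Aim2 KO, against 5.27, 5.50 and 6.26 FPKM in wild type. Ccnb1, cyclin B1, had 14.6, 10.1 and 11.1 FPKM in Aim2 KO, against 7.80, 7.70 and 10.3 FPKM in wild type. Aim2 KO replicate 1 was the highest library for both, and wild type replicate 3 lay above Aim2 KO replicate 2, so the groups overlapped. Ccnb2, cyclin B2, had 12.4, 10.1 and 8.27 FPKM in Aim2 KO, against 7.76, 6.36 and 7.62 FPKM in wild type. Ccna2, cyclin A2, which acts in S and G2 phase, had 9.06, 5.4 and 7.54 FPKM in Aim2 KO, against 5.78, 5.23 and 6.81 FPKM in wild type. Cdc25c, a phosphatase that activates Cdk1, had 2.19, 1.53 and 1.97 FPKM in Aim2 KO, against 1.47, 1.29 and 0.894 FPKM in wild type. Ccnb2 and Cdc25c were separated between the groups, while Ccna2 was not. The closest libraries of Cdc25c were Aim2 KO replicate 2, at 1.53 FPKM on 74 reads, and wild type replicate 1, at 1.47 FPKM on 70 reads. The log2 difference was 0.43 (SE 0.17, 95% interval 0.04 to 0.81) for Ccnb1, 0.43 (SE 0.15, 95% interval 0.08 to 0.79) for Ccnb2 and 0.39 (SE 0.16, 95% interval 0.01 to 0.77) for Cdc25c, on 44 to 96 reads per library for Cdc25c, and it was 0.20 (SE 0.15, 95% interval -0.15 to 0.56) for Cdk1. By limma these 4 had an adjusted p of 0.9998 each.

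Plk1 and the Aurora kinases phosphorylate centrosome, spindle and chromosome proteins. Plk1 had 10.8, 9.64 and 11.3 FPKM in Aim2 KO, against 7.52, 8.55 and 9.38 FPKM in wild type. Aurka, Aurora A, which acts at spindle poles, had 8.13, 5.94 and 6.45 FPKM in Aim2 KO, against 5.27, 4.67 and 5.73 FPKM in wild type. Tpx2, the microtubule protein that activates Aurora A, had 6.95, 5.30 and 6.11 FPKM in Aim2 KO, against 4.68, 3.97 and 6.09 FPKM in wild type. Plk1 and Aurka did not overlap between groups, although the closest libraries of Plk1 were 9.64 FPKM in Aim2 KO replicate 2 and 9.38 FPKM in wild type replicate 3. The log2 difference was 0.29 (SE 0.12, 95% interval 0.02 to 0.56) for Plk1 and 0.33 (SE 0.14, 95% interval 0.01 to 0.64) for Aurka.

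The chromosomal passenger complex corrects faulty attachments and guides cytokinesis. Aurkb, Aurora B, its kinase, had 7.90, 5.70 and 7.05 FPKM in Aim2 KO, against 5.17, 4.69 and 6.71 FPKM in wild type. Birc5, survivin, had 5.98, 4.46 and 4.52 FPKM in Aim2 KO, against 4.01, 3.55 and 4.41 FPKM in wild type. Both were lowest in wild type replicate 2 and highest in Aim2 KO replicate 1. Incenp, the scaffold, had 10.5, 6.85 and 8.95 FPKM in Aim2 KO, against 7.41, 6.44 and 9.78 FPKM in wild type. Cdca8, borealin, had 8.01, 5.50 and 5.84 FPKM in Aim2 KO, against 5.85, 4.61 and 5.78 FPKM in wild type. Of these 4 genes Birc5 alone did not overlap, by 4.46 FPKM in Aim2 KO replicate 2 against 4.41 FPKM in wild type replicate 3.

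Genes of the spindle assembly checkpoint, which delays anaphase until kinetochores are attached, had the smallest median difference of the groups of roles. Bub1, a kinetochore kinase, had 1.39, 2.09 and 2.09 FPKM in Aim2 KO, against 1.38, 1.32 and 2.70 FPKM in wild type. Bub1b, BubR1, an inhibitor of Cdc20, had 4.96, 3.65 and 4.00 FPKM in Aim2 KO, against 3.27, 2.86 and 4.44 FPKM in wild type. For both, wild type replicate 3 lay above Aim2 KO replicates 2 and 3. Bub3, the partner of Bub1 and BubR1, had 32.3, 26.2 and 29.3 FPKM in Aim2 KO, against 31.3, 27.3 and 27.6 FPKM in wild type. Mad2l1, which holds Cdc20 inactive, had 8.36, 6.75 and 7.79 FPKM in Aim2 KO, against 7.19, 6.26 and 7.40 FPKM in wild type. Ttk, the kinase Mps1, had 2.30, 2.66 and 2.84 FPKM in Aim2 KO, against 2.05, 2.58 and 3.09 FPKM in wild type. The groups overlapped in all 5 genes, whose median log2 difference was 0.05. The log2 difference was 0.05 (SE 0.22, 95% interval -0.45 to 0.55) for Bub1, 0.02 (SE 0.12, 95% interval -0.25 to 0.29) for Bub3 and 0.02 (SE 0.15, 95% interval -0.32 to 0.36) for Ttk. Its sign turned when a single library was left out, to -0.06 for Bub1 without wild type replicate 2, to -0.05 for Bub3 without Aim2 KO replicate 1 and to -0.09 for Ttk without wild type replicate 1.

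Cdc20 activates the anaphase-promoting complex, Ube2c is its ubiquitin-conjugating enzyme, and securin is one of its substrates. Cdc20 had 31.8, 22.5 and 21.4 FPKM in Aim2 KO, against 21, 18 and 22.4 FPKM in wild type. Ube2c had 19.9, 9.95 and 11.8 FPKM in Aim2 KO, against 11.8, 9.83 and 14.0 FPKM in wild type. In both genes Aim2 KO replicate 1 was far above the other 5 libraries, and without it the log2 difference of Ube2c was -0.11 in place of 0.16 (SE 0.24, 95% interval -0.40 to 0.73). Pttg1, which encodes securin, the inhibitor of separase, had 16.5, 21.3 and 20.2 FPKM in Aim2 KO, against 20.2, 23.1 and 16 FPKM in wild type. Cdca3, also called TOME-1, a substrate of the complex that promotes degradation of the mitosis inhibitor Wee1, had 11.6, 9.35 and 8.04 FPKM in Aim2 KO, against 6.05, 6.42 and 7.60 FPKM in wild type. Pttg1 was the single member with a negative log2 difference, -0.02 (SE 0.16, 95% interval -0.39 to 0.34), and it was highest in wild type replicate 2, the library in which most members were lowest. Cdca3 did not overlap between groups, at 9.68 ± 1.82 FPKM in Aim2 KO, against 6.69 ± 0.808 FPKM in wild type (SD, n = 3 each), a log2 difference of 0.46 (SE 0.15, 95% interval 0.12 to 0.81).

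Centromere and kinetochore genes showed small differences in one direction. Cenpa, the histone variant that marks centromeres, had 15.3, 13.0 and 11.3 FPKM in Aim2 KO, against 11.5, 8.46 and 9.32 FPKM in wild type. Cenpe, a kinesin that moves chromosomes to the spindle equator, had 1.88, 1.80 and 2.29 FPKM in Aim2 KO, against 1.58, 1.33 and 1.74 FPKM in wild type. The closest libraries of Cenpe were 1.80 FPKM in Aim2 KO replicate 2 and 1.74 FPKM in wild type replicate 3, so its groups were barely apart. Cenpf, a large kinetochore protein, had 1.90, 1.73 and 2.03 FPKM in Aim2 KO, against 1.22, 1.13 and 1.80 FPKM in wild type. Ndc80, which binds microtubules, had 2.68, 1.95 and 2.96 FPKM in Aim2 KO, against 1.66, 1.65 and 2.51 FPKM in wild type. Nuf2, the partner of Ndc80, had 3.84, 3.21 and 3.82 FPKM in Aim2 KO, against 3.16, 2.81 and 4.29 FPKM in wild type. Cenpf, Ndc80 and Nuf2 overlapped through wild type replicate 3, while wild type replicates 1 and 2 lay below every Aim2 KO library. Cenpa overlapped through wild type replicate 1, at 11.5 FPKM, against 11.3 FPKM in Aim2 KO replicate 3. The log2 difference was 0.40 (SE 0.15, 95% interval 0.05 to 0.75) for Cenpa and 0.08 (SE 0.15, 95% interval -0.28 to 0.43) for Nuf2.

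Kinesins and spindle proteins separate the poles and bundle microtubules. Kif11, the kinesin Eg5, which pushes spindle poles apart, had 5.89, 4.53 and 5.21 FPKM in Aim2 KO, against 3.90, 3.29 and 6.04 FPKM in wild type. Kif2c, MCAK, which depolymerises microtubules, had 3.82, 3.42 and 3.28 FPKM in Aim2 KO, against 2.75, 2.00 and 3.90 FPKM in wild type. Kif4, a chromosome-bound kinesin, had 1.88, 2.17 and 2.13 FPKM in Aim2 KO, against 1.79, 1.46 and 2.18 FPKM in wild type. All 3 were highest in wild type replicate 3 and lowest in wild type replicate 2, so the spread within wild type covered the Aim2 KO range. Nusap1, which bundles spindle microtubules, had 5.78, 4.43 and 4.24 FPKM in Aim2 KO, against 3.36, 2.62 and 3.6 FPKM in wild type. Hmmr, a spindle protein and hyaluronan receptor, had 2.49, 2.89 and 3.02 FPKM in Aim2 KO, against 1.90, 1.49 and 2.90 FPKM in wild type. Hmmr was highest in Aim2 KO replicate 3, with wild type replicate 3 next to Aim2 KO replicate 2. Nusap1 was at 4.81 ± 0.84 FPKM in Aim2 KO, against 3.19 ± 0.512 FPKM in wild type (SD, n = 3 each), a log2 difference of 0.47 (SE 0.15, 95% interval 0.12 to 0.82) with no overlap. By the ratio of group means it stood at 1.51, with Cdc25c at 1.56 and Kif20a at 1.5.

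Genes of the central spindle and of cytokinesis had a median log2 difference of 0.35 over 6 genes. Prc1, which bundles the central spindle, had 11.4, 7.47 and 10.1 FPKM in Aim2 KO, against 6.80, 5.80 and 9.18 FPKM in wild type. Kif20a, a kinesin that carries the passenger complex to the midzone, had 3.76, 2.98 and 3.29 FPKM in Aim2 KO, against 1.84, 1.97 and 2.88 FPKM in wild type. Kif20a did not overlap, by 2.98 against 2.88 FPKM in the closest libraries, while Prc1 did. Kif23 and Racgap1 together form centralspindlin, the complex that marks the division plane. Kif23 had 5.81, 3.99 and 5.16 FPKM in Aim2 KO, against 4.17, 3.14 and 4.88 FPKM in wild type. Racgap1 had 6.69, 5.37 and 5.26 FPKM in Aim2 KO, against 4.37, 3.68 and 5.55 FPKM in wild type. In both, wild type replicate 3 reached the Aim2 KO range. Ect2, the exchange factor that activates RhoA at the division plane, had 5.51, 4.16 and 4.98 FPKM in Aim2 KO, against 3.16, 3.19 and 4.07 FPKM in wild type. Anln, anillin, a scaffold of the contractile ring, had 5.95, 5.10 and 6.44 FPKM in Aim2 KO, against 4.14, 3.76 and 5.44 FPKM in wild type. Anln was highest in Aim2 KO replicate 3, and wild type replicate 3 lay above Aim2 KO replicate 2. Ect2 did not overlap, with a log2 difference of 0.40 (SE 0.14, 95% interval 0.07 to 0.72), and Kif20a had 0.44 (SE 0.16, 95% interval 0.07 to 0.80).

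The last group holds a regulator and proteins of the chromosomes. Foxm1, the transcription factor of G2 phase genes, had 2.89, 1.85 and 2.66 FPKM in Aim2 KO, against 2.17, 1.62 and 3.10 FPKM in wild type. Mki67, which encodes Ki-67, the proliferation antigen that coats mitotic chromosomes, had 8.86, 7.83 and 9.10 FPKM in Aim2 KO, against 5.44, 6.10 and 9.38 FPKM in wild type. Top2a, the topoisomerase that untangles chromosomes, had 19.2, 16.4 and 18.8 FPKM in Aim2 KO, against 11.6, 10.7 and 16.9 FPKM in wild type. Wild type replicate 3 was the highest of all 6 libraries for Foxm1 and Mki67, and exceeded Aim2 KO replicate 2 for Top2a. The log2 difference was 0.08 (SE 0.20, 95% interval -0.38 to 0.55) for Foxm1, 0.30 (SE 0.18, 95% interval -0.13 to 0.72) for Mki67 and 0.47 (SE 0.17, 95% interval 0.08 to 0.86) for Top2a, the last level with Nusap1 at the top of the members on this scale. With a pseudocount of 0.1 it was 0.50 for Top2a, below 0.61 for Cdc25c, 0.58 for Nusap1 and for Kif20a and 0.52 for Cdca3. As the table gives them, read as GRCm38, Top2a (ENSMUSG00000020914) lies at chr11:98992943-99024189 on the minus strand, Nusap1 (ENSMUSG00000027306) at chr2:119618298-119651244 on the plus strand and Cdca3 (ENSMUSG00000023505) at chr6:124829547-124833701 on the plus strand.

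**Figure D2:**
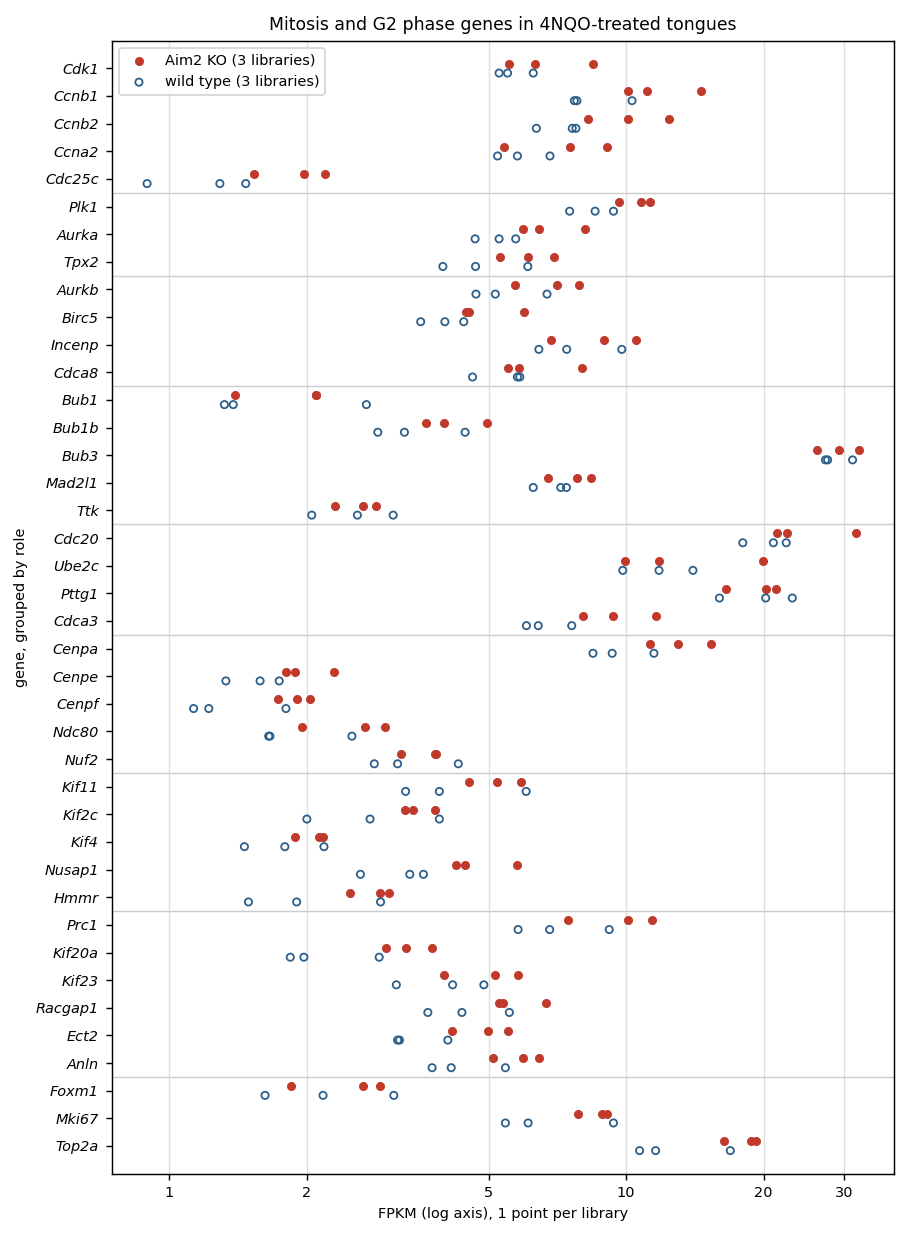
FPKM of each of the 40 genes in each library on a log axis, grouped by role, with Aim2 KO (filled points, upper row of each gene) and wild type (open circles, lower row). Levels run from means of 1.56 FPKM to 29.0 FPKM, and for 10 genes, among them Ccnb2, Cdca3, Nusap1 and Ect2, the filled points all lie right of the open ones.

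**Figure D3:**
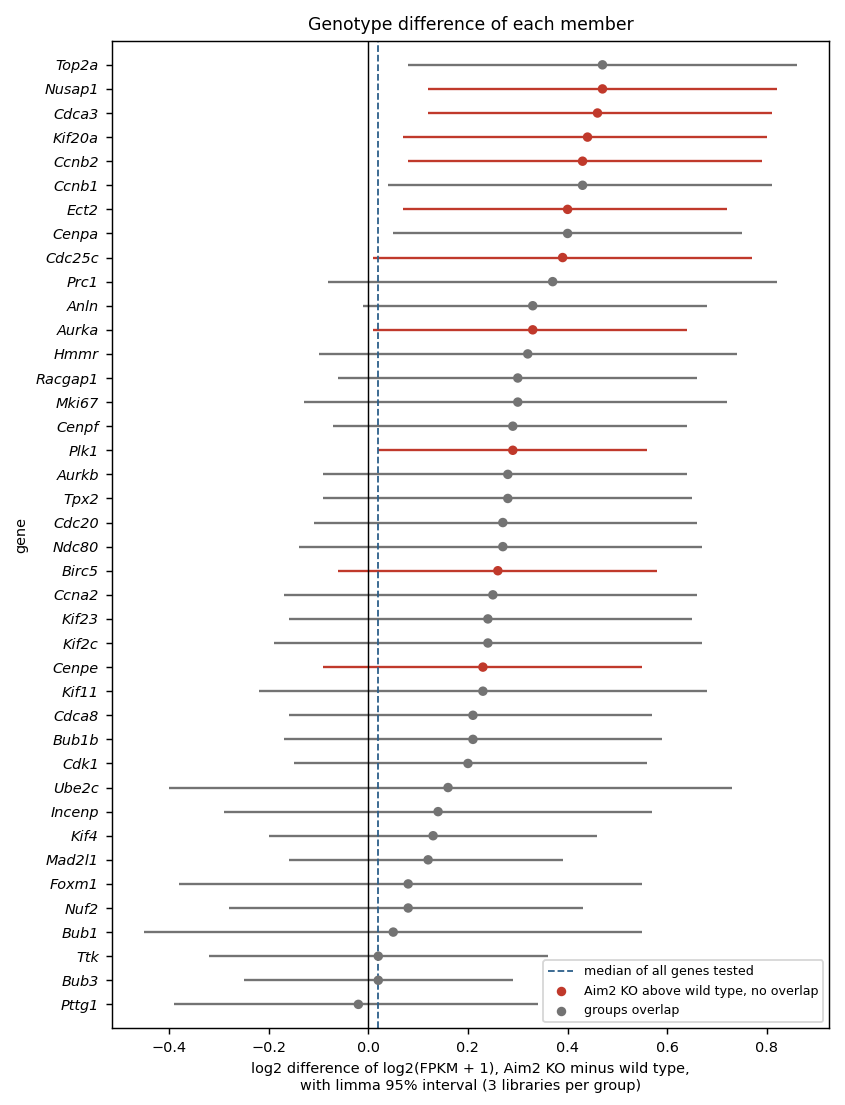
Log2 difference of each gene, Aim2 KO minus wild type, with its 95% interval from limma, ordered by size. The differences run from -0.02 (Pttg1) to 0.47 (Top2a and Nusap1), 11 unadjusted intervals lie above 0, and the dashed line is the median of all genes tested, 0.02.

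The members followed a common order of libraries. Aim2 KO replicate 1 was the highest library for 25 of the 40 genes and wild type replicate 2 the lowest for 30. Summed over the 40 genes, the level was 350, 275 and 299 FPKM in Aim2 KO, against 249, 227 and 285 FPKM in wild type, or 308 ± 38.1 and 253 ± 29.3 FPKM (SD, n = 3 each). Wild type replicate 3 lay above Aim2 KO replicate 2, so the summed levels overlapped. Of the 40 genes 27 were higher in wild type replicate 3 than in Aim2 KO replicate 2, but 38 were higher in Aim2 KO replicate 2 than in wild type replicate 2. The mean over the members in each library carried 62.7% of their variation about the gene means on the log2 scale. The genotype difference of that mean carried 31.1% of the same variation, and differences between libraries of 1 genotype the remainder of the 62.7%.

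A few members departed from that order. After subtracting the library mean of the 40 genes, the residual SD over the 6 libraries was 0.37 for Pttg1, 0.28 for Bub1 and 0.24 for Cdc25c and for Ube2c, against 0.06 for Aurkb and for Tpx2 on the log2 scale. Aim2 KO replicate 1 was the lowest Aim2 KO library for 5 members, Bub1, Ttk, Pttg1, Kif4 and Hmmr. Cdc25c was low in wild type replicate 3, where most other members were at their highest wild type level.

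**Figure D4:**
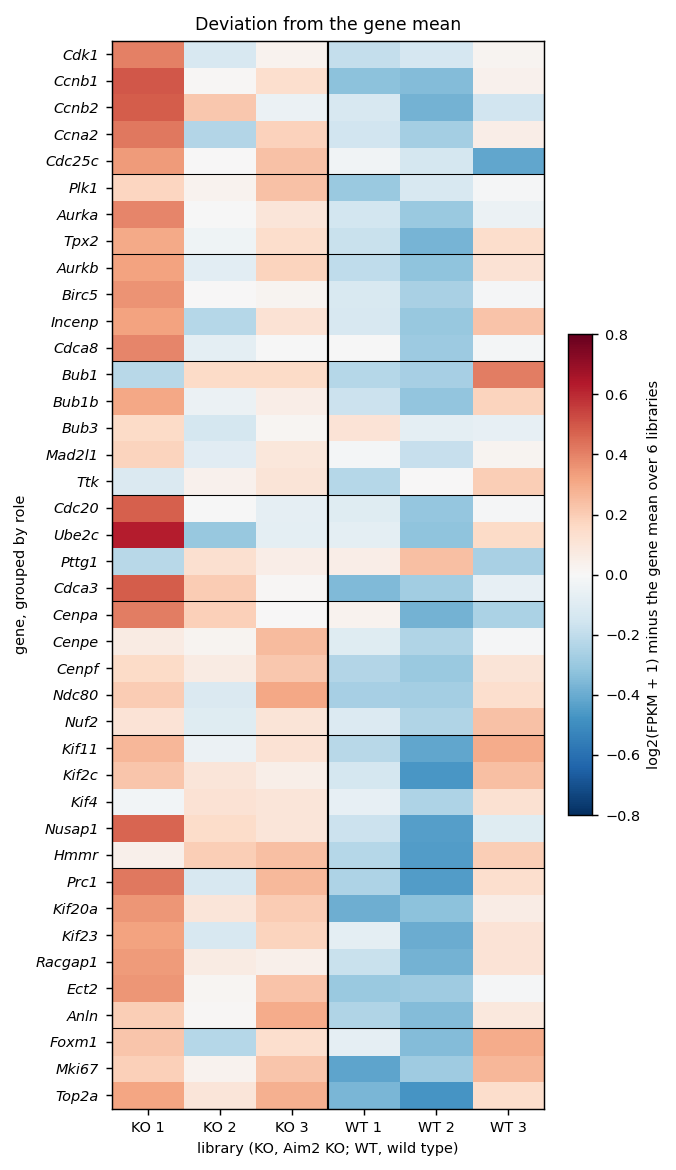
Log2(FPKM + 1) of each gene in each library minus the gene's mean over the 6 libraries, with Aim2 KO left of the line and wild type right of it. Aim2 KO replicates 1 and 3 lie above the mean for 36 genes each and Aim2 KO replicate 2 for 22, while wild type replicates 1, 2 and 3 do so for 3, 2 and 26.

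Single libraries moved these counts. Without Aim2 KO replicate 1 the median log2 difference was 0.19 for the members and 0.06 for all genes tested, with 37 members above 0 against 66.7% of all genes tested, and 10 members did not overlap against 17.7% of all genes tested. The members at an unadjusted p under 0.05 then numbered 3, against 5.29% of all genes tested. They numbered 4 without Aim2 KO replicate 3 (1.24% of all genes tested) and 4 without wild type replicate 1 (1.55%), 1 without wild type replicate 2 (1.47% of all genes tested) and 19 without wild type replicate 3 (1.66%). Without wild type replicate 3, 29 members did not overlap, against 12.8% of all genes tested, and without Aim2 KO replicate 2 the count was 22, against 12.1%. It was 12 without Aim2 KO replicate 3 (7.51% of all genes tested), 11 without wild type replicate 1 (9.01%) and 10 without wild type replicate 2 (7.68%). In none of these fits did a member pass at an adjusted p under 0.05, and without Aim2 KO replicate 1 the share of all genes called was 0.115%.

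Other settings of the test changed the count of members at an unadjusted p under 0.05, all of them higher in Aim2 KO. It was 14 without Aim2 KO replicate 2, against 2.34% of all genes tested. It was 5 under median-of-ratios scaling (1.51%) and 5 with voom on the recovered reads (1.42%). It was 6 with no expression filter (1.80%) and 10 with skeletal muscle level as a covariate (4.87%). With array quality weights, which gave Aim2 KO replicate 1 a weight of 0.241 and Aim2 KO replicate 3 one of 4.18, it was 18 (10.2%). It was 10 and 11 with pseudocounts of 0.1 (1.89%) and 0.5 (1.91%). No member passed the adjusted threshold under any of these, while the share of all genes called was 0.0397% with no filter, 0.0329% with the muscle level and 0.560% with array weights.

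Markers of basal keratinocytes, the layer that holds most dividing epithelial cells, varied with the members between libraries, while their mean log2 level was the same in both genotypes. The 9 markers of this layer, among them Krt5, Krt14 and Trp63, had mean log2 levels of 7.33, 6.99 and 7.15 in Aim2 KO, against 7.11, 6.98 and 7.38 in wild type, a mean of 7.16 in each. Of the 9 markers 5 had positive and 4 negative differences. Their summed level was 7980 ± 2880 FPKM in Aim2 KO, against 7610 ± 897 FPKM in wild type (SD, n = 3 each). The part of this cell type in the level of the members was not tested. The libraries high in these markers, Aim2 KO replicate 1 and wild type replicate 3, were also those high in the members within their group. The mean log2 level of the members minus that of the basal markers was -4.37, -4.30 and -4.33 in Aim2 KO, against -4.58, -4.57 and -4.62 in wild type, a difference of 0.26 between the means, with an SD of 0.034 in Aim2 KO and 0.022 in wild type. On this relative scale 22 members did not overlap, all higher in Aim2 KO, which is 55.0% of the members against 2.54% of all genes tested, and 0 were lower, against 0.321%. These 22 included Top2a, Ccnb1, Ccna2, Aurkb and Kif11, which overlapped on the FPKM scale, while Plk1 and Cenpe overlapped on the relative scale and not on the FPKM scale. This scale was chosen after the values were seen. Subtracting a level that varies with the members narrows their spread within a group, and can widen that of genes that do not vary with it. The shares of 55.0% and 2.54% therefore depend on the choice of scale and are not a test. No such count per gene was made for the other lists. With the basal level as a covariate in limma, 15 members had an unadjusted p under 0.05, against 2.80% of all genes tested on the higher side, and the smallest adjusted p of a member was 0.734 (Top2a).

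The same subtraction was made with other lists. Relative to 10 suprabasal keratinocyte markers the members lay at -6.54, -6.61 and -6.44 in Aim2 KO, against -7.13, -7.13 and -6.80 in wild type, without overlap and with a difference of 0.49 between the means. The suprabasal markers themselves were lower without overlap on the mean log2 scale, at 9.5, 9.30 and 9.26 in Aim2 KO, against 9.66, 9.54 and 9.56 in wild type, so that part of the 0.49 comes from the markers. Of these 10 markers 8 had negative differences, 2 were lower without overlap (Krt10 and Lor), against 1.48% of all genes tested, and 0 passed the test. Relative to skeletal muscle, fibroblast and endothelial markers the groups overlapped, with differences of 0.46, 0.18 and 0.17. Relative to leukocyte markers they overlapped with the opposite sign, at a mean of 0.39 in Aim2 KO, against 0.84 in wild type, a difference of -0.45. They also overlapped relative to the S phase list, at 0.06, -0.03 and -0.09 in Aim2 KO, against -0.20, -0.37 and -0.08 in wild type.

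**Figure D5:**
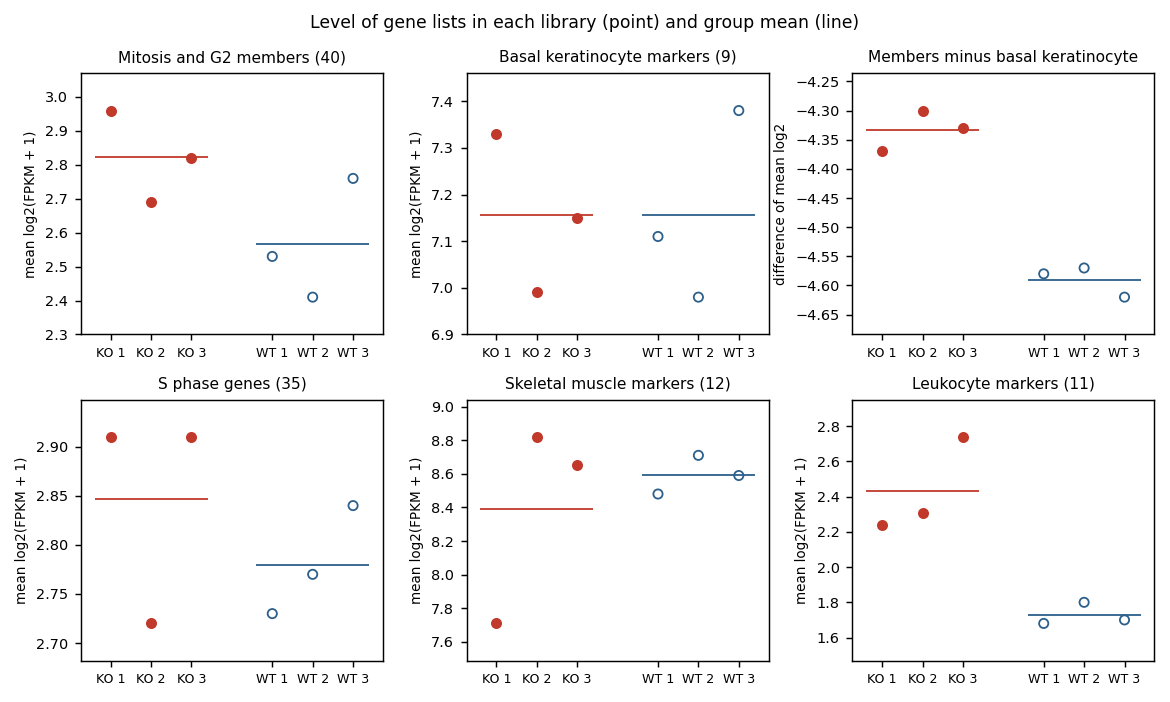
Mean log2(FPKM + 1) of the 40 members, of marker lists and of S phase genes in each library, and the members minus the basal keratinocyte markers (upper right), with Aim2 KO left and wild type right in each panel and lines at the group means. The relative level spans -4.37 to -4.30 in Aim2 KO and -4.62 to -4.57 in wild type, whereas the members alone overlap between groups.

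Leukocyte markers also had higher levels in the Aim2 KO libraries, and leukocytes can divide. Of 11 leukocyte markers 10 were tested, all 10 had positive differences, 9 were higher without overlap and 0 passed the test (summed level 56.4 to 82.2 FPKM in Aim2 KO, against 31.0 to 36.4 FPKM in wild type). Among all genes tested 57.2% had a positive difference and 4.98% were higher without overlap. The summed level of 7 T cell markers was 6.66 to 14.4 FPKM in Aim2 KO, against 2.49 to 4.21 FPKM in wild type. The summed level of 6 B and plasma cell markers was 1.69 to 5 FPKM in Aim2 KO, against 1.45 to 1.97 FPKM in wild type, with Cd79a, Cd79b and Ms4a1 listed at 0 in some libraries. Aim2 KO replicate 3 had the highest leukocyte level, while Aim2 KO replicate 1 had the highest member level. The part of these cells in the level of the members was not tested. Skeletal muscle markers had negative differences in all 11 of 12 that were tested, with a median of -0.22, and 0 passed. Their groups overlapped, with summed levels of 8195, 16491 and 15226 FPKM in Aim2 KO, against 13937, 16426 and 14079 FPKM in wild type. Only Aim2 KO replicate 1 lay below the wild type libraries. The summed suprabasal markers, whose mean log2 level did not overlap, did overlap as a sum, at 25970 to 26968 FPKM in Aim2 KO, against 26142 to 29614 FPKM in wild type, and the 7 fibroblast, 6 endothelial and 5 erythroid precursor markers overlapped between groups, with 116 to 277, 18.3 to 49.5 and 40.7 to 287 FPKM in Aim2 KO, against 153 to 191, 25.8 to 39.5 and 108 to 124 FPKM in wild type.

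Other genes of mitosis, from a list of 76 of which 66 were tested, were mostly higher as well. Of these 59 had a positive log2 difference, with a median of 0.18, 14 were higher without overlap, 0 were lower without overlap and 0 passed the test. Among all genes tested 57.2% had a positive difference, 4.98% were higher without overlap and 1.48% lower. Spc24, a subunit of the Ndc80 complex, had 5.85, 4.83 and 4.89 FPKM in Aim2 KO, against 3.5, 2.99 and 2.98 FPKM in wild type, a log2 difference of 0.57 (SE 0.12, 95% interval 0.29 to 0.85). It had the smallest p of the list, and its lowest Aim2 KO library was at 4.83 FPKM, against 3.5 FPKM in its highest wild type library. Cdkn3, a phosphatase that acts on cyclin-dependent kinases, had 5.97, 5.02 and 4.71 FPKM in Aim2 KO, against 3.95, 2.93 and 3.82 FPKM in wild type. Kifc1, a minus-end kinesin that focuses spindle poles, had 6.91, 5.16 and 5.39 FPKM in Aim2 KO, against 4.55, 3.98 and 3.79 FPKM in wild type. Dlgap5, a spindle protein, had 2.25, 2.24 and 2.65 FPKM in Aim2 KO, against 1.42, 1.38 and 2.04 FPKM in wild type. None of these 4 genes overlapped between the groups.

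Genes that act before mitosis or regulate it lay nearer to the background. Over all genes tested the median was 0.02, with 57.2% positive and 4.98% higher without overlap. Of 34 tested S phase genes 24 had a positive difference, with a median of 0.08, and 3 were higher without overlap. These were Rfc3, a clamp loader subunit, at 4.04 ± 0.521 FPKM in Aim2 KO, against 3.32 ± 0.129 FPKM in wild type, Chaf1b, a histone chaperone, at 3.42 ± 0.371 FPKM in Aim2 KO, against 2.79 ± 0.299 FPKM in wild type, and Gins2, a subunit of the replicative helicase, at 1.33 ± 0.107 FPKM in Aim2 KO, against 0.994 ± 0.172 FPKM in wild type (SD, n = 3 each). Prim1, the catalytic subunit of primase, had 4.74 ± 0.513 FPKM in Aim2 KO, against 3.66 ± 0.628 FPKM in wild type and overlapped. The G1 cyclins and their kinases had a median of 0.06 over 8 genes, 6 of them positive and 0 without overlap, led by Ccnd2, cyclin D2, at 34.7 ± 6.33 FPKM in Aim2 KO, against 27.2 ± 1.34 FPKM in wild type. The core subunits and regulators of the anaphase-promoting complex had a median of 0.01 over 16 tested genes, 9 of them positive and 0 without overlap. The list of CDK inhibitors and G2 checkpoint genes had a median of 0.02 over 19 genes, 10 of them positive, 1 higher without overlap and 0 lower. The gene without overlap was Cdkn2c, at 6.66 ± 0.375 FPKM in Aim2 KO, against 5.77 ± 0.392 FPKM in wild type. Cdkn2a, which encodes the inhibitor p16 and Arf, had 21.5 ± 2.6 FPKM in Aim2 KO, against 17.3 ± 4.77 FPKM in wild type, and overlapped. None of these genes passed the test.

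The regulators that act through the CHR and E2F sites differed in both directions. Of 22 tested genes of the MuvB, E2F and Myb list 14 had a positive difference, with a median of 0.09. Without overlap 3 were higher and 1 lower, against 4.98% and 1.48% of all genes tested. Lin54, the subunit that binds the CHR, had 5.67, 4.53 and 5.15 FPKM in Aim2 KO, against 4.29, 3.55 and 4.48 FPKM in wild type, with no overlap and a log2 difference of 0.26 (SE 0.13, 95% interval -0.03 to 0.56). E2f1, an activator of S phase genes, had 3.22, 2.51 and 2.83 FPKM in Aim2 KO, against 3.63, 3.96 and 3.33 FPKM in wild type, lower in every Aim2 KO library than in any wild type library, with a log2 difference of -0.27 (SE 0.12, 95% interval -0.56 to 0.02). E2f7, a repressor of the same family, had 1.44, 1.02 and 1.3 FPKM in Aim2 KO, against 0.825, 0.768 and 0.987 FPKM in wild type. Lin54 and E2f7 were among the 3 genes higher without overlap, and E2f1 was the 1 lower. None of the list passed (limma adjusted p over all genes).

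Some members share their locus with another gene, and the labels do not say whether strand was used in counting. Of the 40 members 11 overlap another gene of the table, 10 of these on the opposite strand, and for 6 the other gene had a mean of at least 1 FPKM. The largest was Elovl1 beside Cdc20, at 158 FPKM, followed by Fgfr2 beside Bub3, at 25.1 FPKM, Pdzd11 beside Kif4, at 10.3 FPKM, Exosc9 beside Ccna2, at 7.87 FPKM, Cdc23 beside Kif20a, at 5.46 FPKM, and 9930104L06Rik beside Cdca8, at 2.13 FPKM. Without strand, reads from such pairs cannot be told apart where they overlap. Ube2c overlaps Tnnc2, a troponin gene of fast muscle fibres, which was listed at 0 to 0.114 FPKM in Aim2 KO, against 0 to 0.113 FPKM in wild type. Tnni2, another troponin gene of these fibres, had 1060, 2063 and 2015 FPKM in Aim2 KO, against 1890, 2154 and 1677 FPKM in wild type. The listed value of Tnnc2 may therefore not be its level. Whether reads were lost where it overlaps Ube2c was not tested. Of the 10 members whose groups did not overlap, Kif20a is the one among the 6 whose overlapping gene had at least 1 FPKM.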

How the data were processed

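RNA from whole tongues was sequenced as 6 libraries, 3 per genotype, and replicates were not pooled. The authors deposited FPKM values per gene, and their aligner, counter, strand setting and genome build were not given in sources used here. Multiplied by gene length, 100% of the deposited FPKM values above 0 came out as whole reads (tolerance 0.01), which gave back the depth. Members were matched by symbol. The 40 members and all gene lists were chosen with earlier results of these data known.

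Genotype, the only term, was tested on log2(FPKM + 1) by limma-trend (limma 3.58.1, R 4.3.3), over the 12144 genes whose mean reached 1 FPKM, two-sided, with Benjamini-Hochberg adjustment over all of them and a threshold of 0.05. All 40 members were described by library. In each other list at most 4 genes, those with the smallest p, could be named, and genes outside the lists only where called, beside Aim2. Genes that overlap a member were named for their position, and Tnni2 for comparison with Tnnc2. The code was tested on simulated data. Alternatives were pseudocounts of 0.1 and 0.5, no filter, a filter at 0.1 FPKM, TPM, median-of-ratios scaling, limma's voom on the recovered reads, array quality weights, skeletal muscle or basal keratinocyte levels as covariates, the replicate number as a block, and leaving out each library. Non-overlap counts under other scalings, without each library and relative to basal keratinocyte markers were added after the data were seen. Promoters were read from RefSeq on GRCm38.p6.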

Additional observations from a re-analysis of the deposited data

How the results depend on the processing

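None of 17 alternatives brought a member past the threshold. The smallest adjusted p of a member by limma was 0.161, for Top2a with array quality weights. Of 680 member differences under these alternatives 656 kept their direction, and 24 turned sign, over 7 members. With median-of-ratios scaling Ttk was at -0.0084 and Bub3 at -0.01, and with voom on recovered reads they were at -0.01 and -0.02. With array quality weights Bub3 was at -0.0088 and Pttg1 at 0.02, and with the skeletal muscle covariate Bub3 was at -0.03, Ube2c at -0.0013 and Pttg1 at 0.04. Leaving out 1 library gave ranges of -0.11 to 0.36 for Ube2c, -0.07 to 0.25 for Foxm1, -0.16 to 0.09 for Pttg1, -0.02 to 0.21 for Nuf2, -0.06 to 0.27 for Bub1, -0.09 to 0.12 for Ttk and -0.05 to 0.10 for Bub3. Members higher without overlap numbered 2 with median-of-ratios scaling (3.12% of all genes tested), 22 relative to basal keratinocyte markers (2.54%) and 10 to 29 when 1 library was left out. The 29 came without wild type replicate 3 (12.8% of all genes tested). The count was 10 both without Aim2 KO replicate 1 (17.7%) and without wild type replicate 2 (7.68%). Over the whole table limma called 14 genes with no filter, 0 with a filter at 0.1 FPKM, 0 with TPM, 68 with array quality weights, 4 with the skeletal muscle covariate, 0 with the basal keratinocyte covariate and 0 to 14 when 1 library was left out, the 14 without Aim2 KO replicate 1. With the replicate block 0 genes were called and 13 members had an unadjusted p under 0.05 on the higher side (2.68% of all genes tested), and the median of the members was 0.27. The replicate numbers were not taken to pair the libraries. Deviations from the group means correlated at 0.3514, 0.4585 and 0.0302 for numbers 1 to 3, against -0.4646 to 0.213 between unlike numbers. Numbers 1 and 2 thus lay above every unlike pair and number 3 did not, so these values do not decide whether the numbers pair libraries. The causes of these changes were not tested. With 3 libraries per group the median SE of a member was 0.16 on the log2 scale.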
